A study of Homo sapiens with 20 samples.

Results

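The olfactory receptor (OR) genes of human chromosome 11 were examined for binding of CTCF and cohesin in M14 melanoma cells. Their members were the protein-coding genes of chromosome 11 in the GENCODE annotation lifted to hg19 whose symbol is OR followed by a digit, which gave 177 of 20163 protein-coding genes. Each gene was taken with 10 kb on either side, and the resulting windows merged into 92 intervals that covered 3.61 Mb. Of the 177 genes, 57 belong to families OR51 to OR56 (class I) and 120 to the other families (class II). The symbol ends in P, the usual mark of a pseudogene, for 6 of the genes that the annotation lists as protein-coding. OR genes are described as silent outside the nose, but the peak lists hold no RNA measurement and expression was not analysed here.

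M14 is a human melanoma line. In replicate 1 all cells carried a doxycycline-inducible shRNA against STAG2 and were cultured with doxycycline for 5 days (STAG2-KD) or without it (WT). The libraries of replicate 2 are labelled only as M14 cells with a wild type or STAG2-KD genotype. For each condition and replicate, 1 list of ChIP-seq peaks was available for STAG1, STAG2, CTCF and SMC1A, which gave 16 lists, 2 of each antibody per condition. The 4 input libraries served only as controls in peak calling, and nothing states whether the replicates were separate cultures, so p-values measure only the spread between these libraries. The lists held 58521 to 150308 peaks on chromosomes 1 to 22, X and Y. The reads to which ChIP and input had been scaled, worked back from fold enrichments and p-values for an assumed genome of 2.7 Gb, numbered 20200000 to 40700000 in replicate 1 and 37400000 to 65600000 in replicate 2.

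OR genes encode the G-protein-coupled receptors with which sensory neurons of the nose detect odorants, and each neuron expresses a single OR allele. They lie in tandem arrays, and class I receptors, which resemble those of fish, are kept together on chromosome 11. CTCF binds a defined DNA motif, and cohesin, a ring of SMC1A, SMC3, RAD21 and either STAG1 or STAG2, extrudes chromatin loops that tend to stop at CTCF sites. In olfactory neurons OR choice depends on contacts between OR enhancers bound by LHX2, EBF and LDB1.

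The sequences below come from 8 of the OR sites that had a peak in all 16 lists and a match to the CTCF core motif, and at least 1 site of every OR cluster with such a match is shown. They are hg19 sequence on the strand given, 41 bases long, with the 11 bases of the core match in capitals.
OR52K1, chr11:4514647-4514687, minus strand: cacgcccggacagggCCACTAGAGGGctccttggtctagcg
OR51B4, chr11:5312653-5312693, minus strand: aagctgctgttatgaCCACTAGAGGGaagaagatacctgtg
OR52N2, chr11:5829837-5829877, minus strand: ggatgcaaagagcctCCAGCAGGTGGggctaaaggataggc
OR4B1, chr11:48231778-48231818, minus strand: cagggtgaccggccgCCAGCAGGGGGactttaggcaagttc
OR4A15, chr11:55125221-55125261, minus strand: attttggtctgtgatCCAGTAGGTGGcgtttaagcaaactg
OR5M1, chr11:56392197-56392237, plus strand: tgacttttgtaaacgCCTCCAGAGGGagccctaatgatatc
OR5A2, chr11:59197570-59197610, minus strand: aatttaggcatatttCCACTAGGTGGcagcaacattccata
OR8B3, chr11:124272383-124272423, plus strand: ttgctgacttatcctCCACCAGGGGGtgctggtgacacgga

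Peaks of all 4 proteins were sparse around the OR genes. CTCF had 17.7 to 24.1 peaks per Mb in the OR windows over its 4 lists, against 43.3 to 61.1 in the windows of the 1140 other protein-coding genes of chromosome 11. The density was 2.50-fold lower in the OR windows (log2 ratio -1.32 ± 0.024, SD, n = 4). SMC1A, the cohesin ring subunit, had 11.9 to 19.7 peaks per Mb in the OR windows and 45.1 to 80.3 in the other windows, a 4.31-fold lower density (log2 ratio -2.11 ± 0.23, SD, n = 4). For STAG1 the density was 2.90-fold lower (-1.54 ± 0.12) and for STAG2 2.97-fold lower (-1.57 ± 0.11). The OR windows had the lower density in 4 of 4 lists of each antibody, with ranges that did not overlap. Some OR windows overlap windows of other genes, and peaks there counted in both sets. For the 133 OR genes with no other protein-coding gene in the window, densities were 2.735-fold (CTCF) to 4.55-fold (SMC1A) lower. The exact sign-flip test over 4 lists cannot go below p = 0.125, two-sided, which each antibody reached (adjusted p = 0.125 over the 4 antibodies), so the difference cannot pass a threshold of 0.05 in this design.

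**Figure D1:**
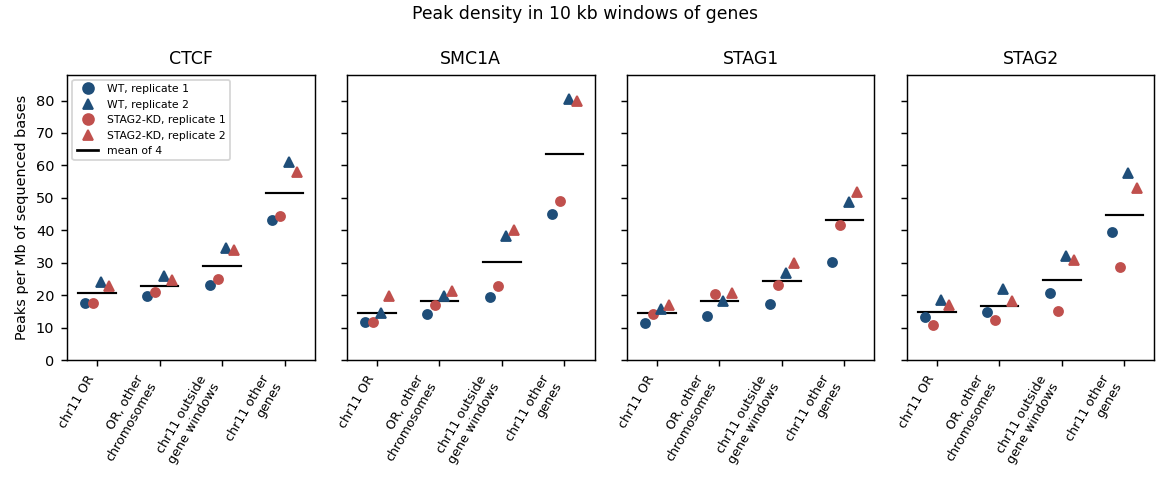
Peaks per Mb of sequenced bases for each library (points; circles for replicate 1, triangles for replicate 2) and the mean of 4 libraries (lines), for each antibody, in the 10 kb windows of the chromosome 11 OR genes, of OR genes on other chromosomes, on chromosome 11 outside every protein-coding gene window, and in the windows of the other chromosome 11 genes. The OR windows hold the lowest mean density of the 4 for every antibody, with CTCF at 17.7 to 24.1 per Mb against 43.3 to 61.1 around other genes.

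The OR windows were also below the part of chromosome 11 that lies outside every protein-coding gene window. There CTCF had 23.1 to 34.7 peaks per Mb and SMC1A 19.6 to 40.3, so that the OR windows were 1.41-fold lower for CTCF, 2.03-fold for SMC1A, 1.64-fold for STAG1 and 1.63-fold for STAG2. The 238 OR genes of other chromosomes had similar densities, with 19.96 to 26.0 CTCF and 14.3 to 21.5 SMC1A peaks per Mb. The ZNF genes of chromosome 19, another tandem family (249 genes), had 27.5 to 42.7 CTCF and 31.1 to 52.0 SMC1A peaks per Mb. The difference between the OR and ZNF genes was not tested.

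Sequence that occurs more than once cannot be mapped uniquely, and OR genes resemble each other. Of all 50-base words in the OR windows, 93.5% occurred once in the reference genome, against 94.3% in the windows of other chromosome 11 genes. Per Mb of such unique sequence, CTCF was 2.48-fold and SMC1A 4.28-fold lower in the OR windows. The shares of unique words are close, so dividing by them could change the ratios only slightly. Within the gene bodies the median OR gene had 98.9% unique words, and the 104 OR genes without a peak had a median of 99.2%. The read length of the libraries is not given in the sources used here, and the part of repeated sequence in the result was not tested. The base composition did differ, at 37.6% GC in the OR windows, 42.9% in the other gene windows and 39.9% outside gene windows. The part of base composition in the result was not tested.

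CTCF core motifs were also rare in the OR windows. They held 57 matches on either strand, or 15.8 per Mb, against 35.1 per Mb in the other gene windows and 23.7 per Mb outside gene windows. Where the motif was present it was bound about as often: 28.1% of the OR matches had a CTCF peak in all 4 CTCF lists, against 27.9% in the other gene windows and 25.9% outside them. A motif match is a description of sequence and is not a measured site.

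By gene, 104 of the 177 OR genes (58.8%) had no peak of any antibody within 10 kb in any of the 16 lists, against 41 of the 1140 other genes (3.60%). The OR windows cover 3.61 Mb and those of the other genes 75.3 Mb, so the other genes have wider windows on average. The part of window width in the shares by gene was not tested. A peak in every list was found for 33 OR genes (18.6%) and for 892 other genes (78.3%). Over the CTCF lists, 53, 53, 64 and 64 OR genes had a peak (WT and STAG2-KD of replicate 1, then of replicate 2), which is 29.9% to 36.2% of the OR genes, and percentages among other chromosome 11 genes were 90.0, 90.2, 93.0 and 92.9. For SMC1A the lists had 40, 40, 45 and 45 OR genes, where the other genes gave 88.3%, 89.9%, 92.8% and 93.5%. STAG1 lists had 38, 48, 48 and 51 OR genes (83.4%, 88.8%, 90.9% and 91.5% of other genes), and STAG2 lists had 42, 37, 57 and 55 (87.5%, 85.6%, 93.6% and 92.8%). The OR share was below the background in every list. Among the 133 OR genes with no other protein-coding gene in the window, 82 (61.7%) had no peak.

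**Figure D2:**
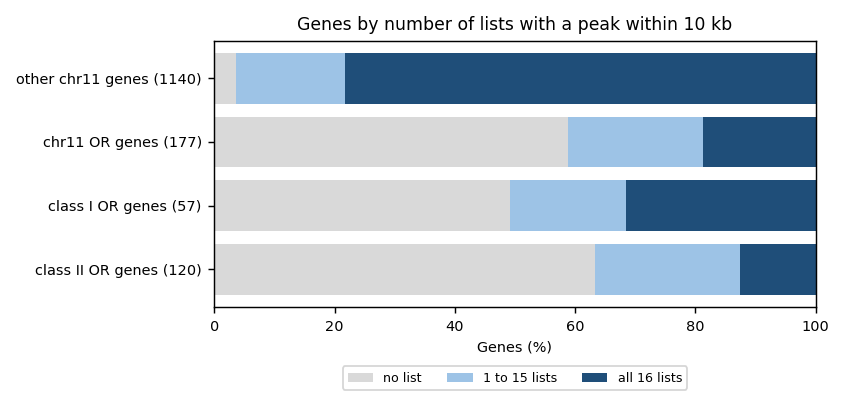
Percentage of genes with a peak of any antibody within 10 kb in no list, in 1 to 15 lists and in all 16 lists, for other chromosome 11 genes, all chromosome 11 OR genes and the class I and class II receptors, with the number of genes in brackets. No list had a peak for 58.8% of the OR genes and 3.60% of the other genes.

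Class I and class II receptors differed in density. Class I windows (1.16 Mb) had 27.4 ± 3.8 CTCF peaks per Mb (SD over 4 libraries) and class II windows (2.45 Mb) 17.5 ± 3.3, and class I was the higher in all 4 lists. SMC1A gave 19.4 ± 5.0 and 12.2 ± 3.1, STAG1 18.8 ± 2.5 and 12.8 ± 2.2, and STAG2 19.6 ± 3.8 and 12.7 ± 3.4. No peak was found for 28 of 57 class I genes (49.1%) and for 76 of 120 class II genes (63.3%). These are values without a test, since the genes of each class share the same few clusters. Another protein-coding gene lay in the window of 44 OR genes, most of them class I. The part of these neighbouring genes in the difference between classes was not tested.

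The OR genes form 8 clusters when a gap of 1 Mb divides them. The first, from OR52B4 to OR10A3 (chr11:4388493-7963255), holds 69 OR genes, including all 57 class I receptors, among 45 other protein-coding genes, and had 26.9 ± 4.8 CTCF peaks per Mb. The fifth, from OR4A16 to OR5AK2 (chr11:55110677-56757318), holds 50 class II genes and only 2 other protein-coding genes. It had 12.2 ± 2.3 CTCF and 7.78 ± 1.3 SMC1A peaks per Mb, the lowest CTCF density of the clusters with more than 3 genes, and 35 of its 50 OR genes (70.0%) had no peak. The sixth (OR9Q1 to OR10V1, 21 genes) had 18.2 ± 1.9 and the eighth (OR6X1 to OR8A1, 24 genes) 20.3 ± 5.8 CTCF peaks per Mb. The second (OR4B1 to OR4A47, 7 genes) had 29.9 ± 3.5. The small clusters near the centromere were almost empty: OR4C13 and OR4C12 had no peak in any list, and among OR4A5, OR4A8 and OR4C46 only OR4A5 had a site, present in 3 lists. The bodies of these 5 genes had fewer unique 50-base words than the median OR gene, with 80.6% for OR4C13, 84.3% for OR4C12, 83.4% for OR4A5, 88.1% for OR4A8 and 72.2% for OR4C46. The part of unique sequence in their low counts was not tested.

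At the ends of the clusters, OR52B4, OR10A3, OR4A47, OR4C46 and OR4A16 also had no peak within 10 kb, whereas OR4B1, OR8A1 and OR9Q1 had peaks in all 16 lists. OR5AK2 had peaks in 15 lists, OR10V1 in 11, and OR6X1 in 3.

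Of the stretches between neighbouring sites that hold an OR gene, the longest without a peak of any antibody in any list spanned 323 kb (chr11:123616785-123939545) at the start of the eighth cluster. It contains OR6X1, whose only site lies just before it, 7504 bp from the gene, and the 10 genes from OR6M1 to OR10G7, none of which had a peak in its window. In the fifth cluster, 200 kb from OR4C15 to OR4C6 (6 OR genes) were equally empty. Over all of chromosome 11 the median distance between neighbouring sites was 3.40 kb, the 95th percentile 43.4 kb and the longest 3281 kb. For sites in all 16 lists these values were 34.97, 211 and 3609 kb, and the longest of these distances, which spans the centromere, holds OR4A5, OR4A8 and OR4C46. Of the stretches without a site in all 16 lists that lie wholly inside an OR cluster, the longest was 571 kb (chr11:55717468-56288779). It holds the 23 OR genes from OR10AG1 to OR5M8, of which 17 had no peak at all. The median OR gene lay 40.1 kb from the nearest site found in all 16 lists, and OR5T2 was the farthest at 281 kb, while the median of the other chromosome 11 genes was 0 kb. A distance of 0 kb means that a site overlaps the gene, and gene lengths were not matched.

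**Figure D3:**
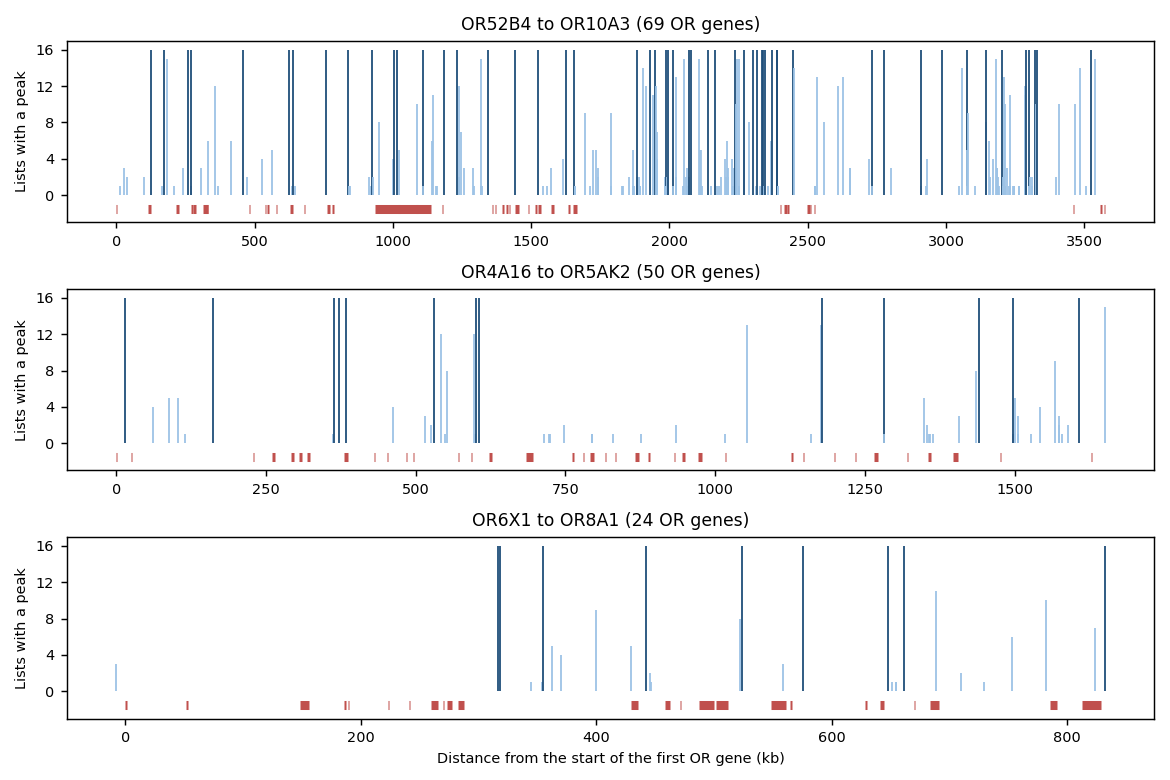
Merged sites along the 3 largest OR clusters: each vertical line is a site, its height the number of the 16 lists with a peak there (dark for all 16), and red bars below mark OR genes, against the distance from the start of the first OR gene in kb. In the third panel no site lies within 315 kb after the start of OR6X1, a stretch that holds OR6X1 and the 10 genes from OR6M1 to OR10G7. Sites in all 16 lists are absent from 571 kb of the second panel.

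Merging the peaks of the 16 lists gave 122 sites in the OR windows, of 224475 in the genome. The share of sites found in all 16 lists was higher there than around other genes. A peak in all 16 lists was found at 33 of the 122 (27.0%), against 16.4% of 8440 sites in the other chromosome 11 gene windows and 16.6% in the genome. A peak in only 1 list was found at 35 (28.7%), against 34.1% around the other genes. The 33 shared sites had a median length of 1412 bp and a median strength percentile of 81.6, where the percentile ranks a peak by its −log10 p-value within its own list. The 35 sites of a single list had a median length of 202 bp and a median percentile of 14.1. Both contrasts follow in part from the definition, since a site merged from more lists is longer and a peak must pass every threshold to be in all lists.

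**Figure D4:**
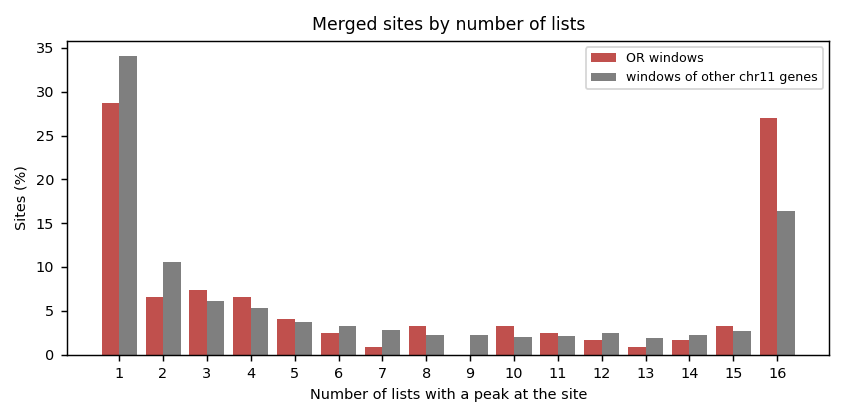
Percentage of merged sites (y axis) by the number of lists, 1 to 16, with a peak at the site (x axis), in the OR windows (122 sites) and in the windows of other chromosome 11 genes (8440 sites). The bar at 16 lists stands at 27.0% for OR windows and 16.4% for the others.

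OR peaks ranked higher in strength than peaks around other genes in the same list. The median percentile of SMC1A peaks was 69.2 to 81.3 in the OR windows and 47.7 to 49.9 in the other chromosome 11 gene windows, a difference of 27.7 ± 6.0 points (SD, n = 4). The difference was 20.6 ± 5.4 for STAG1, 15.9 ± 2.9 for STAG2 and 5.04 ± 2.2 for CTCF, each higher in 4 of 4 lists. Its exact sign-flip p was 0.125 for each antibody, the smallest that 4 lists can give. On chromosome 11 outside every protein-coding gene window, the median percentile was 51.5 to 59.3 for SMC1A. For CTCF it was 51.15 to 53.1 there, close below the 53.4 to 58.6 of the OR windows.

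Cohesin without CTCF was uncommon there. No CTCF peak was found at 24 of the 122 OR sites (19.7%), against 44.9% of sites around other chromosome 11 genes. A cohesin peak in at least 2 lists with no CTCF peak marked 3 OR sites (2.46%), against 17.6% around the other genes. They lay in OR9Q1, 5486 bp from OR10V1 with STX3 also within 10 kb, and near OR8G5. The OR10V1 site (chr11:59474181-59474903) had 4 SMC1A, 3 STAG1 and 4 STAG2 peaks. The reverse, CTCF in all 4 lists with no cohesin peak, was seen at 6 of 55 OR sites (10.9%), against 5.80% around other genes. OR2AT4, a receptor that keratinocytes of the skin also express, had 2 of these 6 sites. At its exonic site (chr11:74798307-74798920) the CTCF fold enrichment was 12.1 in WT and 6.56 in STAG2-KD of replicate 1, and 9.19 and 3.64 in replicate 2, so that STAG2-KD was the lower in both. At the other site the values were 4.67 and 6.72, then 6.22 and 5.08, with no common direction.

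Of the 33 shared OR sites, 15 were intergenic, 7 intronic, 4 exonic and 7 within 1 kb of an annotated transcript start of any gene, and 9 overlapped an OR gene. The CTCF core motif lay within 100 bp of the range of CTCF summits at 13 of the 33 (39.4%), as the sequences of OR52K1 to OR8B3 show, against 35.3% of the 1939 such sites elsewhere on chromosome 11. It lay on the minus strand at 10 and on the plus strand at 3. Over all 122 OR sites it was on the minus strand at 12 and on the plus strand at 7. The strand split was not tested or compared with other sites. CTCF fold enrichment at the 33 sites had a median of 52.8 in WT and 56.7 in STAG2-KD of replicate 1, and 37.03 and 35.5 in replicate 2. At the OR52K1 site, inside the gene, the CTCF folds were 81.2 and 71.4, then 45.6 and 52.9. The OR51B5 site at chr11:5401451-5402862 had 78.9 and 75.7, then 50.7 and 48.3.

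By the mean CTCF percentile over the 4 CTCF lists, the strongest OR sites were those at OR51D1 (95.4), OR2AG2 (94.55), OR4S1 (93.3), OR5A2 (92.1), OR51B5 (92.02), OR52N2 (91.9), OR8B3 (91.6), OR52A5 (90.85), OR52K1 (90.5) and OR10D3 (90.4), all of them in all 16 lists.

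A peak within 1 kb of an annotated transcript start was found for 11 OR genes (6.21%) in any list, against 928 of the 1140 other genes (81.4%). Only OR51D1 and OR52N2 had one in all 16 lists, and no other OR gene had one in 8 or more. The number of annotated starts per gene was not matched between OR and other genes. The OR51D1 site (chr11:4657563-4659142) had the highest CTCF fold enrichment of the OR sites in the WT list of replicate 1, at 105, with 91.6 in STAG2-KD, and 48.6 and 31.99 in replicate 2. Its STAG2 fold was 30.9 in WT and 19.8 in STAG2-KD of replicate 1, and 18.4 and 12.4 in replicate 2, lower in STAG2-KD in both. The OR52N2 site (chr11:5828383-5830592), which lies in the TRIM5 locus window as well, had STAG2 folds of 61.7 and 30.7, then 31.5 and 31.1. Its STAG1 folds were 57.6 and 50.96, then 32.7 and 26.6, also lower in STAG2-KD. OR51E2, a receptor also expressed in prostate, had a peak near a start in 6 lists, none of them SMC1A.

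OR51B5 and OR9Q1, the 2 OR genes annotated over more than 100 kb, had most sites. OR51B5 had 11 sites, 3 of them in all 16 lists, and OR9Q1 had 8, none of them in all 16 lists. OR9G1 had 5 sites, and OR51L1, OR2AG2, OR4S1 and OR8B3 had 4 each. The OR4S1 site at chr11:48328806-48330389, 102 bp beyond the gene, was the strongest of the shared sites by median percentile (94.7).

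The β-globin genes lie inside the first OR cluster, between OR51V1 and OR51B4. HBB, HBD and HBG1 had no peak within 10 kb in any list. Sites in all 16 lists stood on either side, at chr11:5225375-5226816 near OR51V1 and at chr11:5312120-5313443 near OR51B4, whose motif sequence is given above. Between them, over 85.3 kb, 4 further sites were found, none with CTCF and none in more than 2 lists. HBG2 and HBE1 are annotated with long transcripts that run into OR51B5, and their windows therefore share its sites.

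The number of OR peaks was next compared between WT and STAG2-KD. CTCF lists had 64 OR peaks in WT and 64 in STAG2-KD of replicate 1, and 87 and 83 in replicate 2. The log2 ratio of STAG2-KD to WT was -0.034 ± 0.048 (SD of 2 replicates, exact permutation p = 1.0). SMC1A lists had 43 and 43, then 53 and 71 (0.21 ± 0.30, exact p = 1.0), so that the difference came from replicate 2. STAG1 lists had 42 and 52, then 57 and 61 (0.20 ± 0.15, exact p = 0.667), higher in STAG2-KD in both replicates. STAG2 lists had 48 and 39, then 67 and 61 (-0.22 ± 0.12, exact p = 0.667), lower in STAG2-KD in both. With 2 lists against 2 the smallest exact p is 0.333, and each adjusted p over the 4 antibodies was 1.0. The whole lists had log2 ratios of -0.022 for CTCF, 0.086 for SMC1A, 0.26 for STAG1 and -0.30 for STAG2, each with the sign of the ratio in the OR windows. The OR ratio minus that of the whole list was -0.012 ± 0.038 for CTCF, 0.12 ± 0.39 for SMC1A, -0.056 ± 0.093 for STAG1 and 0.082 ± 0.075 for STAG2 (SD, n = 2). With every list cut to its strongest peaks, as many as the shortest list holds, the OR ratios were 0.0013 for CTCF, 0.058 for SMC1A, 0.034 for STAG1 and -0.052 for STAG2.

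A WT peak without an overlapping STAG2-KD peak in the same replicate was called lost, and the reverse gained. These are calls of presence at the authors' thresholds and not tests of binding. STAG2 lost 9 of 48 OR peaks in replicate 1 (18.8%, where the genome lost 32.2%) and 11 of 67 in replicate 2 (16.4%, genome 22.1%). STAG1 gained 10 of 52 in replicate 1 (19.2%, genome 31.7%) and 8 of 61 in replicate 2 (13.1%, genome 18.6%). The OR shares lay below the genome in both replicates for STAG2 losses and STAG1 gains, and likewise for STAG2 gains, STAG1 losses and SMC1A losses. They rest on few peaks, and the differences from the genome were not tested. STAG2 gained 1 of 39 and 5 of 61 (genome 6.62% and 12.0%), and STAG1 lost 0 of 42 and 3 of 57 (genome 6.42% and 13.6%). CTCF lost 7 of 64 and 15 of 87 (10.9% and 17.2%, genome 12.3% and 16.9%) and gained 7 of 64 and 12 of 83 (genome 15.1% and 12.1%), shares near the background. SMC1A lost 4 of 43 and 7 of 53 (genome 19.1% and 25.8%) and gained 5 of 43 and 22 of 71 (11.6% and 31.0%, genome 28.6% and 29.7%). Lost and gained OR peaks were weak, with median percentiles of 7.78 to 29.8 over the comparisons that had any, and retained OR peaks had medians of 63.1 to 87.1. In the genome these were 11.1 to 22.6 and 53.2 to 66.0.

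Few OR sites were lost or gained in both replicates. For CTCF it was 3 lost and 0 gained of 99 OR sites (3.03% lost), where the genome had 1.78% lost and 1.13% gained. For SMC1A it was 1 lost and 2 gained of 76 (genome 1.13% and 2.27%), for STAG1 0 lost and 1 gained of 65 (genome 0.687% and 3.91%) and for STAG2 1 lost and 0 gained of 72 (genome 2.68% and 0.296%). Counts this low cannot be set apart from the background.

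The 3 lost CTCF sites lay near OR51S1 (chr11:4861139-4861590), inside OR9Q1 (chr11:57870600-57870952) and at OR10D3 (chr11:124053429-124053942). Their WT fold enrichments were 5.28 and 3.90 at OR51S1, 4.14 and 4.87 at OR9Q1, and 4.89 and 8.12 at OR10D3. In OR9Q1, SMC1A and STAG2 were lost at the same place (chr11:57828320-57828990), where CTCF had a peak in all 4 lists and STAG1 in none. The WT folds there were 4.95 and 3.00 for SMC1A and 4.08 and 3.24 for STAG2, while CTCF was at 9.49 in WT and 6.57 in STAG2-KD of replicate 1, and 9.75 and 5.87 in replicate 2. The gained SMC1A sites were at OR4C5 (chr11:48387411-48387612, STAG2-KD folds 4.21 and 2.81) and in OR9Q1 (chr11:57826579-57826773, folds 4.02 and 2.75). The gained STAG1 site was at OR51E2 (chr11:4718833-4719210, folds 3.28 and 4.16). Every site of this group ranked low, with mean percentiles of 8.17 to 31.0.

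At the 33 shared OR sites the strength percentile of STAG1 was higher in STAG2-KD at 31 in replicate 1 and at 22 in replicate 2, and at 22 (66.7%) in both. Among the 37206 such sites of the genome it was higher in both replicates at 57.7%. The median difference at the OR sites was 9.21 points in replicate 1 and 1.43 in replicate 2. STAG2 was lower in STAG2-KD at 30 and 23 OR sites, and at 23 (69.7%) in both, against 61.7% in the genome, with median differences of -5.77 and -3.08 points. CTCF was higher in both replicates at 14 (42.4%, genome 31.6%) and lower in both at 6 (18.2%, genome 33.9%). SMC1A was higher in both at 14 (42.4%, genome 41.1%) and lower in both at 5 (15.2%, genome 29.3%). The differences between OR and genome shares were not tested. By fold enrichment at the same 33 sites, the STAG1 median was 19.5 in WT and 37.2 in STAG2-KD of replicate 1. In replicate 2 it was 18.7 and 17.8, with a median log2 ratio per site of 0.019. The STAG2 median fold was 21.4 and 17.4, then 18.1 and 13.2. Most shared OR sites thus ranked higher for STAG1 and lower for STAG2 in the STAG2-KD lists, as most shared sites of the genome did. The size of the difference varied between replicates. A percentile also depends on the length of its list. In replicate 1, STAG1 lists held 63535 peaks in WT and 85621 in STAG2-KD, and STAG2 lists held 79115 and 58521. The part of list length in these rank differences was not tested.

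**Figure D5:**
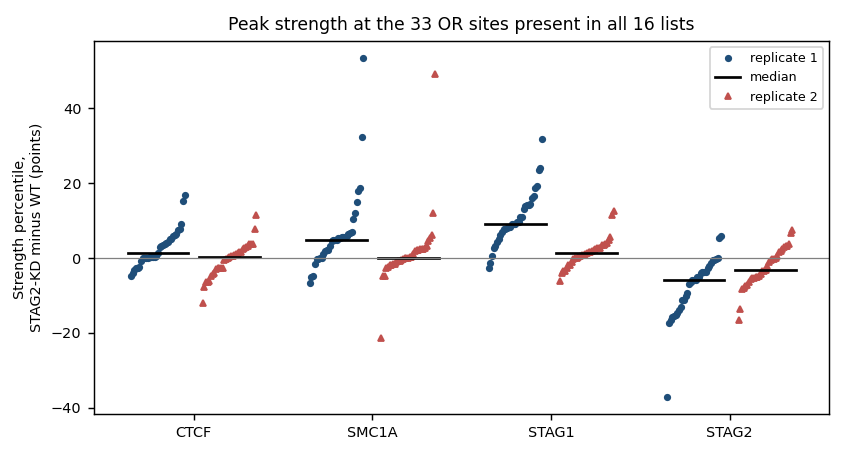
Difference in strength percentile, STAG2-KD minus WT in points, at each of the 33 OR sites present in all 16 lists (points, sorted from low to high), by antibody and replicate, with the median as a line. Most STAG1 points of replicate 1 lie above 0 (31 of 33) and most STAG2 points below it (30 of 33), and the medians of replicate 2 lie nearer to 0.

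Single sites moved much further in rank than the median. The site near OR51B4, beside the β-globin genes, had the largest STAG1 difference of replicate 1, from percentile 39.2 to 70.8 and from a fold of 5.98 to 19.3. In replicate 2 its STAG1 percentile went only from 74.6 to 78.0. The site near OR8D2 (chr11:124199329-124200444) went from percentile 11.9 to 65.3 for SMC1A in replicate 1, with folds of 4.34 and 10.2. The site near OR51L1 at chr11:5012096-5012946 went from percentile 44.8 to 7.79 for STAG2 in replicate 1, with folds of 7.43 and 4.45. In replicate 2 its STAG2 percentile went from 69.1 to 55.6, a smaller move. These are the extremes of 33 sites, picked after their values were seen, and were not tested.

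Genes that act with the receptors in olfactory neurons were examined as a list of 12: GNAL and ADCY3 (the G protein subunit and cyclase of odor signaling), the channel genes CNGA2, CNGA4, CNGB1 and ANO2, the marker OMP, the receptor transporters RTP1 and RTP2, and the regulators LHX2, LDB1 and EBF1. All 12 had a peak within 10 kb in at least 1 list and 8 had one in all 16, against a background of other chromosome 11 genes of which 3.60% had no peak and 78.3% had one in all 16 lists. Of the 12, only CNGA4 and OMP lie on chromosome 11, and gene lengths were not matched to the background. EBF1, a long gene, had 65 sites and RTP2 had 2. Their windows held 107 CTCF, 149 SMC1A, 92 STAG1 and 111 STAG2 sites. Of these, 2 CTCF sites were lost in both replicates (1.87%, genome 1.78%). In both replicates 1 CTCF site (0.935%, genome 1.13%), 1 SMC1A site (0.671%, genome 2.27%) and 5 STAG1 sites (5.43%, genome 3.91%) were gained, and no STAG2 site was lost or gained (genome 2.68% and 0.296%). Counts this low cannot be set apart from the background. CNGA4 lies within the span of the first OR cluster and had 6 sites, 1 of them in all 16 lists.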

How the data were processed

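ChIP-seq peaks of M14 cells were analysed from the lists that the authors deposited, 1 per library. Per the study's methods and the labels, reads were aligned to hg19 (bowtie2, and BWA in the notes for replicate 2), filtered for quality and duplicates, and called with MACS2 against input. For each peak the authors deposited a whole-number score (not used), a fold enrichment (a ratio of pileup to background) and −log10 p-values and −log10 q-values. Replicate 1 was limited at a −log10 q of 2, size-selected on beads and has peaks of at least 120 bp. Replicate 2 was limited at a −log10 p of 2, size-selected on gel and has peaks of at least 150 bp. WT and STAG2-KD lists with the same number thus form a pair by protocol, as the labels' extraction texts show, and folds were compared only within a replicate.

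Peaks outside the 22 autosomes and the sex chromosomes were left out. Windows were genes with 10 kb on either side, sites were peaks merged across lists by at least 1 bp, and densities excluded unsequenced bases. The reference was GRCh37, the same build as hg19, with GENCODE annotation lifted to it. The exact sign-flip test (4 lists) and exact permutation test (2 against 2), two-sided, were used, with Benjamini-Hochberg adjustment over 4 antibodies. Alternatives covered window size, peak thresholds, list length, background windows and replicates. Functions were tested on simulated data. The genes named were the first and last of each cluster, those with most sites, with a peak near a start, with a site lost or gained in both replicates or with the strongest CTCF sites, and the β-globin genes, together with extremes noted as such. The members, lists and tests were chosen with earlier results of these data known. Python 3.11.15, numpy 2.4.6, pandas 2.3.3, scipy 1.17.1 and matplotlib 3.10.9 were used.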

Additional observations from a re-analysis of the deposited data

How the results depend on the processing

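The lower density in OR windows had the same direction in all 56 combinations of antibody and alternative, 1.41-fold to 4.89-fold lower. Per Mb of unique sequence, chosen after seeing the data, it was 2.48-fold lower for CTCF, and against chromosome 11 outside gene windows, chosen likewise, it was 1.41-fold lower. The STAG2-KD to WT ratio of OR peak numbers kept its sign or was 0 in 39 of 40 combinations, but not its size. With equal numbers of peaks the log2 ratio was 0.0013 for CTCF (reversed from -0.034, exact p = 1.0), 0.058 for SMC1A (from 0.21), 0.034 for STAG1 (from 0.20) and -0.052 for STAG2 (from -0.22). With no flank it was -0.079 for CTCF, 0.51 for SMC1A and -0.42 for STAG2, at 5 kb -0.068 for CTCF, and at a −log10 q of at least 5 it was 0.076 for SMC1A. Without 1 replicate it was -0.068 to 0 for CTCF, 0 to 0.42 for SMC1A, 0.098 to 0.31 for STAG1 and -0.30 to -0.14 for STAG2. The cause of these shifts was not tested. With the replicate block (a paired exact sign-flip test, smallest p = 0.5) the log2 ratios were -0.034 for CTCF, 0.21 for SMC1A, 0.20 for STAG1 and -0.22 for STAG2, with p of 1.0, 1.0, 0.5 and 0.5, and no call changed.

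The mean number of OR genes with a peak followed the width of the window by construction, in the order CTCF, SMC1A, STAG1 and STAG2. It was 15.75, 8.75, 11 and 11.75 with no flank, 37.5, 25, 28.25 and 29.75 at 5 kb, 109.2, 81.5, 86.75 and 88.75 at 25 kb, and 150.5, 128.5, 132.5 and 133.5 at 50 kb, against 58.5, 42.5, 46.25 and 47.75 at 10 kb. Within 1 kb of a start it was 6.25, 3, 3.5 and 3.5.

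The counts of sites lost or gained in both replicates were too small to be steady. With no flank CTCF lost 1. At 25 kb STAG2 lost 3, CTCF gained 3 and STAG1 gained 4. At 50 kb SMC1A lost 2 and STAG2 lost 5, and CTCF gained 3, SMC1A 5 and STAG1 8. At a −log10 q of at least 5, CTCF lost 0 and gained 1, SMC1A lost 0 and STAG1 gained 3. With equal numbers of peaks, CTCF lost 1 and gained 1, SMC1A lost 0, STAG1 lost 1, and STAG2 lost 2 and gained 3. At a common −log10 q of at least 2, added after seeing the data, STAG2 lost 2, SMC1A gained 1 and STAG1 gained 2. Within a single replicate, that is without the other, CTCF lost 5 to 15 and gained 5 to 12, SMC1A lost 3 to 7 and gained 3 to 22, STAG1 lost 0 to 3 and gained 8 to 10, and STAG2 lost 9 to 11 and gained 2 to 5.

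Replicates differed in threshold, size selection and depth, so list lengths cannot be compared between them. A peak list shows no binding below its threshold, and with 2 lists per condition no exact test passes a threshold of 0.05.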
